A study of Homo sapiens with 24 samples.

Results

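The mesenchymal transition genes examined here were VIM, TWIST1, SNAI2, ZEB1, CDH2 and SPARC. The members were every probe on the array that carried 1 of these symbols, 6 genes of the 20046 named there, which gave 8 probes of 47323, a pair each for VIM and SNAI2 and 1 for each other gene. Levels were read in 2 cell lines, SCC-61, a head and neck squamous carcinoma line, and HaCaT, an immortalized but nontransformed line of skin keratinocytes. Both were starved in medium with 1% serum and then left untreated or given recombinant AMP-18, a secreted stomach protein, at 2 µg/ml. RNA was taken after 2 h or 24 h, which made 8 groups of 3 arrays and 24 arrays in all. The lines were grown in different media, with hydrocortisone named for SCC-61 alone, so that a difference between the lines and a difference between their media cannot be told apart. Each line is a single established line, and no source said that samples within a group were separate cultures, so the p-values measure only the spread between these samples, which may be technical. They also gave no slide or batch, so that time after treatment and handling of the 2 h and 24 h samples cannot be told apart.

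The values were log2 intensities, in which a difference of 1 is a doubling of brightness, with an array median of 4.22. Each came with a detection p-value, which compares the probe with the negative control beads of the same array. A probe was taken as detected where this p was under 0.05, and a group was taken as at background for a probe where 0 of its 3 arrays detected it. The arrays detected 18767 to 22161 probes (39.7% to 46.8%), and the lowest detected value lay between 4.28 and 4.48 on each. Tests were run on the 21580 probes that some group detected on each of its 3 arrays, 7 of the 8 member probes among them. Of 14 keratinocyte markers listed, 9 had a probe under their symbol, and all 9, KRT5 and KRT14 included, were detected in all 8 groups. KRT6A, KRT6B, KRT17, COL17A1 and TP63 had no probe under their symbol and could not be checked. Of 13 fibroblast markers, 7 were detected on all 3 arrays of each SCC-61 group, against 0 in HaCaT at 2 h and 3 at 24 h, and PDGFRA, PDGFRB, THY1 and FBN1 were detected on 0 of 24 arrays. Of 7 endothelial markers, CDH5 and VWF were detected on all HaCaT arrays at 24 h and on 0 at 2 h. In SCC-61, CDH5 was detected on 12 of 12 arrays and VWF on 0. The leukocyte markers CD14 and CD68 and the melanocyte marker MITF were detected in all 8 groups. Of their lists, ITGAM, LYZ and PMEL were detected on some arrays, and PTPRC, CD3E, TYR, MLANA and SOX10 on 0. The cause of the change in HaCaT with time was not tested.

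In the epithelial to mesenchymal transition, cells of a sheet give up their junctions and keratins and take on the shape and motility of mesenchymal cells. TWIST1, SNAI2 and ZEB1 encode DNA-binding factors that drive it, in large part by repressing epithelial genes such as CDH1 (E-cadherin) through E-box motifs. VIM, CDH2 and SPARC encode products that mark its outcome, the intermediate filament vimentin, the adhesion molecule N-cadherin and a secreted glycoprotein that binds collagen. In squamous carcinoma the transition is studied for its link with invasion, and cultured keratinocytes are known to express SNAI2 and, in migrating sheets, vimentin.

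The promoter windows of VIM, CDH2 and SPARC are shown because each gene stands for a different pattern among the members. VIM differed between the lines, CDH2 fell with time in HaCaT, and SPARC rose with time in both lines. RefSeq windows of GRCh38.p14, from 250 bases before to 50 after the start of the gene, were found for 4 of the 6 members. ZEB1, whose probe was at background, had several and none is printed, and CDH2 had a pair, of which the one farther upstream is printed. Capitals mark the E-box CANNTG, the GC box GGGCGG and the CCAAT box, each searched on both strands. The windows are chr10:17227991-17228290 on the plus strand for VIM, chr18:28177081-28177380 on the minus strand for CDH2 and chr5:151686866-151687165 on the minus strand for SPARC.
VIM: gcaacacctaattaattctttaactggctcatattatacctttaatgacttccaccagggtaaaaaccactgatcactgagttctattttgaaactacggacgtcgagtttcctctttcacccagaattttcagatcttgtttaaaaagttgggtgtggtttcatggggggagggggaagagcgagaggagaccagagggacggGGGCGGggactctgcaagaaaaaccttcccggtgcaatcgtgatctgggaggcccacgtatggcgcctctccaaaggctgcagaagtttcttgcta
CDH2: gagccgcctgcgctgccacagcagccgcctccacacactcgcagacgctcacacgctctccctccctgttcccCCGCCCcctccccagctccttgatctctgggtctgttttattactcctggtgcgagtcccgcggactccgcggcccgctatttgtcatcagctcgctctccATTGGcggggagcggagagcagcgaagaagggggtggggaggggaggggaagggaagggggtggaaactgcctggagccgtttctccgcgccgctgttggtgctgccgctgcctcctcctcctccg
SPARC: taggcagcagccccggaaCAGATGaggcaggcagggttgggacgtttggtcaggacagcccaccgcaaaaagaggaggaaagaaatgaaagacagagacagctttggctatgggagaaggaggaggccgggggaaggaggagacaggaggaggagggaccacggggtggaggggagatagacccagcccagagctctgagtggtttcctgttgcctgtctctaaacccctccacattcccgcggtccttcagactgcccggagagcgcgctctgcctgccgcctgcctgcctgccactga
The VIM window held 1 GGGCGG, from its base 205, and 0 E-boxes. The printed CDH2 window held 1 GGGCGG, from base 74, and 1 CCAAT, from base 175, and 0 E-boxes. The other CDH2 window, chr18:28036592-28036891, held 1 E-box, from base 154, 1 CCAAT, from base 184, and 0 GGGCGG. That of SPARC held 1 E-box, from base 19, and 0 of the other motifs. CACCTG, the E-box bound by the SNAI and ZEB factors and itself a form of CANNTG, had 0 matches in these 4 windows. Of 35116 windows of this length, 20.6% held CACCTG, 68.7% CANNTG, 45.0% GGGCGG and 34.6% CCAAT.

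**Figure D1:**
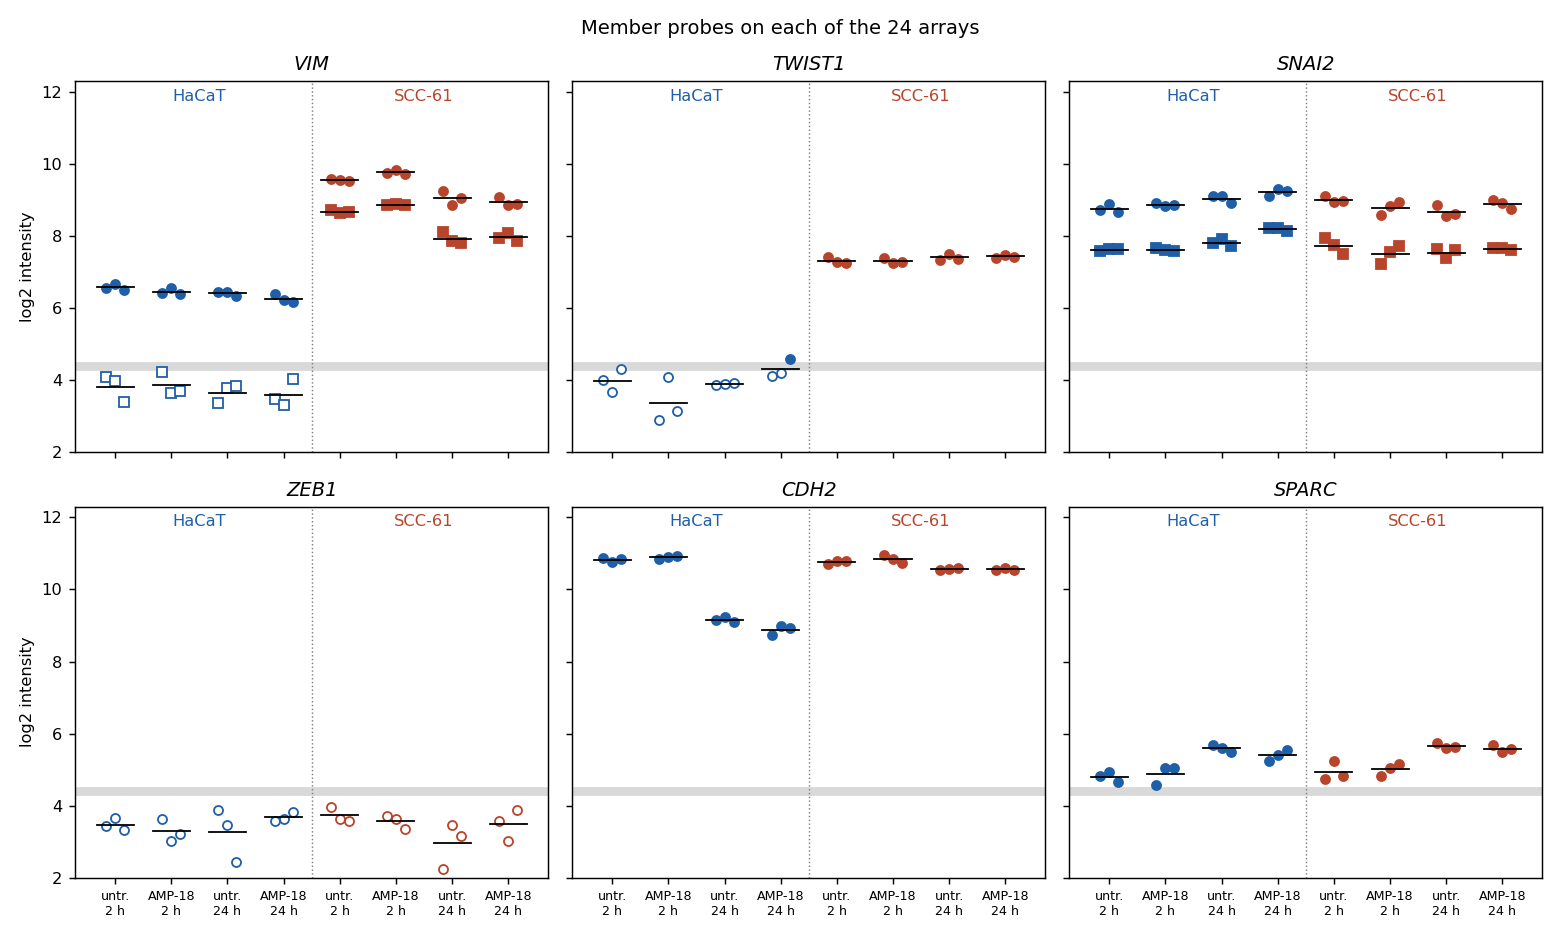
Log2 intensity of every member probe on each of the 24 arrays, by cell line, treatment and time. Circles are the brighter or only probe and squares the dimmer probe of VIM and SNAI2, filled where the detection p was under 0.05 and open where it was not, black bars are means of 3 arrays and the grey band spans the lowest detected values (4.28 to 4.48). ZEB1 was open on all 24 arrays, TWIST1 on 11 of the 12 HaCaT arrays and the dimmer VIM probe on all 12 HaCaT arrays.

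TWIST1, a basic helix-loop-helix factor of embryonic mesoderm, was found in SCC-61 and was at or near background in HaCaT. In untreated SCC-61 its log2 intensities were 7.41, 7.29 and 7.24 at 2 h and 7.33, 7.51 and 7.37 at 24 h. In untreated HaCaT they were 3.99, 3.67 and 4.30 at 2 h and 3.88, 3.88 and 3.91 at 24 h, with no array detected. The arrays of the lines were well apart, and the probe was detected on 12 of 12 SCC-61 arrays and on 1 of 12 HaCaT arrays. Since HaCaT gave only a bound, the level in untreated SCC-61 was at least 7.51-fold higher at 2 h (limma, adjusted p = 7.79e-16) and at least 8.18-fold higher at 24 h (adjusted p = 1.19e-16). These bounds set the SCC-61 mean against, on each HaCaT array, the lowest detected value, or the TWIST1 value where that was higher. The p-values test the fitted log2 differences, 3.33 and 3.51, which use the undetected HaCaT values, and not the bounds. In such cultures a lower share of expressing cells and less RNA per cell cannot be told apart. With AMP-18 the bound was at least 7.34-fold at 2 h. At 24 h with AMP-18 the HaCaT values were 4.13, 4.19 and 4.60, and the array with 4.60 was the 1 detected, at a detection p of 0.0221. The fitted difference between the lines was then a log2 of 3.13 (adjusted p = 1.84e-15), taken against HaCaT arrays of which 2 of 3 did not detect the probe, and no fold is given.

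Within SCC-61, TWIST1 did not pass the test for time or for AMP-18. The 4 SCC-61 groups had means of 7.31 to 7.43, with SDs of 0.04 to 0.10 (n = 3), and groups next to each other in mean had overlapping arrays. The AMP-18 groups of 24 h and 2 h just missed overlap (lowest 7.40 at 24 h, highest 7.39 at 2 h). Untreated cells at 24 h and 2 h differed by 0.09 (95% interval -0.28 to 0.46), and the interval of the AMP-18 difference ran from -0.38 to 0.37 at 2 h and from -0.35 to 0.40 at 24 h.

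SNAI2, which encodes the zinc finger repressor Slug and is normally present in basal keratinocytes, was detected on all 24 arrays by both of its probes, so neither line was at background. In untreated cells at 2 h the brighter probe read 9.10, 8.93 and 8.98 in SCC-61 and 8.73, 8.88 and 8.67 in HaCaT. At 24 h it read 8.87, 8.54 and 8.62 in SCC-61 and 9.10, 9.10 and 8.91 in HaCaT. The order of the lines turned between the 2 times, and at neither time did their arrays overlap. SCC-61 was higher by 0.24 (SE 0.09, adjusted p = 0.0193) at 2 h and lower at 24 h, with a log2 difference of -0.36 (SE 0.09, adjusted p = 0.000739). Both calls fell short of the threshold by the methods' t-test (adjusted p up to 0.0661). The 2 h call was also lost without SCC-61 replicate 1, HaCaT replicate 1 or HaCaT replicate 3 (adjusted p up to 0.0982), and the dimmer probe gave 0.12 there (adjusted p = 0.326). At 24 h the dimmer probe gave -0.27 (adjusted p = 0.0164), a call lost without SCC-61 replicate 2 or HaCaT replicate 2 (adjusted p up to 0.113), with cyclic loess (-0.20, adjusted p = 0.0823) and by the methods' t-test (adjusted p = 0.0732). With AMP-18 the brighter probe differed by -0.07 at 2 h (95% interval -0.25 to 0.11) and by -0.33 at 24 h (adjusted p = 0.00142), and the dimmer probe by -0.13 and -0.54 (adjusted p = 1.99e-05 for the latter).

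With time SNAI2 moved in opposite directions in the lines. From 2 h to 24 h in untreated cells the brighter SNAI2 probe fell by 0.32 in SCC-61 (SE 0.09, adjusted p = 0.0025) and rose by 0.27 in HaCaT (SE 0.09, adjusted p = 0.00826), calls that the methods' t-test did not make (adjusted p = 0.0844 and 0.0655). The changes of the lines differed by -0.60 (95% interval -0.85 to -0.35, adjusted p = 0.000248). The dimmer probe gave -0.19 in SCC-61 (adjusted p = 0.115) and 0.20 in HaCaT (adjusted p = 0.0775), neither past the threshold, and their difference, -0.39, was past it (adjusted p = 0.0255). This last call was lost without replicate 1 of either line at 2 h or replicate 2 of either line at 24 h (adjusted p up to 0.111), and in a fit with no trend (adjusted p = 0.0505). The readings of the pair correlated across the 24 arrays with a Pearson r of 0.86, and with 0.77 within SCC-61 and 0.89 within HaCaT, over arrays that share their groups.

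ZEB1, a zinc finger and homeodomain repressor of epithelial genes, was at background in both lines. Its only probe was detected on 0 of 24 arrays, with log2 intensities of 2.25 to 3.98 and a lowest detection p of 0.316, and it was not tested. The highest of these values was below the lowest detected value on any array, and no order was read among its groups.

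VIM, the gene of vimentin, had the higher signal in SCC-61. In untreated cells at 2 h its brighter probe read 9.58, 9.55 and 9.52 in SCC-61 and 6.56, 6.66 and 6.51 in HaCaT, and at 24 h it read 9.26, 8.86 and 9.06 against 6.45, 6.44 and 6.33. The lowest of the 12 SCC-61 arrays, at 8.86, was above the highest of the 12 HaCaT arrays, at 6.66. The log2 difference was 2.97 (SE 0.08, adjusted p = 4e-23) at 2 h and 2.65 (SE 0.08, adjusted p = 4.27e-22) at 24 h, or 7.84-fold and 6.28-fold. With AMP-18 the lines differed by 3.32 and 2.69, or 9.98-fold and 6.45-fold. Among the 12221 genes with a tested probe, 0.9% had a more positive difference than VIM in untreated cells at 2 h and 1.63% at 24 h.

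The dimmer VIM probe put HaCaT at background. It was detected on all 12 SCC-61 arrays and on 0 of 12 HaCaT arrays, whose values were 3.30 to 4.21 at detection p-values of 0.14 to 0.918. In untreated SCC-61 it read 8.72, 8.64 and 8.67 at 2 h and 8.11, 7.87 and 7.80 at 24 h. By this probe SCC-61 was therefore at least 19.3-fold higher at 2 h and at least 11.7-fold higher at 24 h, and at least 21.7-fold and 11.7-fold with AMP-18. The brighter probe gave 7.84-fold and 6.28-fold in untreated cells, below these bounds, which hold for the dimmer probe alone. The probes of the pair thus disagreed on the size of the difference and on whether HaCaT was above background. They correlated with an r of 0.95 across the SCC-61 arrays and of 0.14 across the HaCaT arrays, where 1 of them was not detected.

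VIM also fell with time in SCC-61. From 2 h to 24 h in untreated cells the brighter probe fell by 0.49 (SE 0.08, adjusted p = 9.49e-06) and the dimmer by 0.75 (SE 0.17, adjusted p = 0.000352), and for each the arrays of the 2 times did not overlap. In HaCaT the brighter probe changed by -0.17 (adjusted p = 0.0828), which did not pass. The change in SCC-61 was the more negative by -0.32 (95% interval -0.56 to -0.08, adjusted p = 0.029), but this call was lost when any of 6 of the 12 arrays was left out (adjusted p up to 0.126). These were SCC-61 replicate 1 and HaCaT replicates 1 and 3 at 2 h, and SCC-61 replicate 2 and HaCaT replicates 1 and 2 at 24 h. It was lost too with no filter (adjusted p = 0.0533) and with cyclic loess (adjusted p = 0.0501). The dimmer probe was at background in HaCaT at both times, so no difference between the changes of the lines is read from it.

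**Figure D2:**
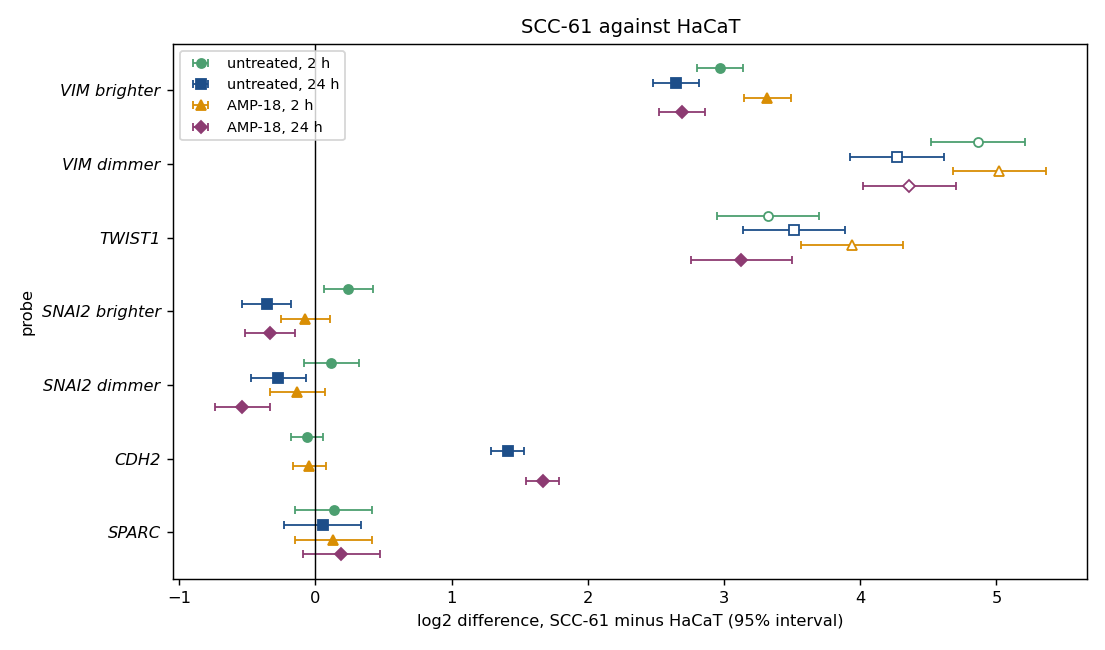
Log2 difference between the lines (SCC-61 minus HaCaT) for each tested member probe, with 95% intervals from limma, for untreated and AMP-18 treated cells at 2 h and 24 h. Open symbols are comparisons with HaCaT at background, where the fitted value is no bound. VIM and TWIST1 lie to the right at all times, CDH2 lies near 0 at 2 h and at 1.41 and 1.67 at 24 h, and all 4 SPARC intervals hold 0.

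CDH2, the gene of N-cadherin, did not pass the test between the lines at 2 h and was lower in HaCaT at 24 h. In untreated cells at 2 h it read 10.71, 10.79 and 10.80 in SCC-61 and 10.87, 10.77 and 10.84 in HaCaT, with overlapping arrays and a difference of -0.06 (95% interval -0.18 to 0.06). At 24 h it read 10.54, 10.56 and 10.59 in SCC-61 and 9.14, 9.22 and 9.09 in HaCaT. The arrays no longer overlapped, and SCC-61 was 2.66-fold higher (log2 difference 1.41, SE 0.06, adjusted p = 5.92e-19). With AMP-18 the differences were -0.04 (95% interval -0.16 to 0.08) and 1.67 (adjusted p = 8.48e-21).

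From 2 h to 24 h in untreated HaCaT, CDH2 fell by 1.68 (SE 0.06, adjusted p = 1.34e-20), or 3.2-fold, and 1.42% of the 12221 genes had a more negative change. In SCC-61 it fell by 0.20 (SE 0.06, adjusted p = 0.00438), a value that cyclic loess normalization brought to -0.11 (adjusted p = 0.115). The changes of the lines differed by 1.47 (95% interval 1.30 to 1.64, adjusted p = 1.03e-14). In order of their means, the 4 groups at 2 h came first, from 10.77 to 10.89, and neighbours among them overlapped. The 2 SCC-61 groups at 24 h followed at 10.56 and 10.55, also overlapping, and the 2 HaCaT groups at 24 h came last at 9.15 and 8.88, without overlap.

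SPARC, the gene of osteonectin, was above background on all 24 arrays, differed with time and did not pass the test between the lines. In untreated cells at 2 h it read 4.75, 5.24 and 4.82 in SCC-61 and 4.82, 4.94 and 4.64 in HaCaT. At 24 h it read 5.73, 5.59 and 5.62 in SCC-61 and 5.67, 5.61 and 5.49 in HaCaT. The lines overlapped at each time, and in each line the 2 times did not overlap. SPARC rose by 0.71 in SCC-61 (SE 0.14, adjusted p = 6.89e-05), or 1.63-fold, and by 0.79 in HaCaT (SE 0.14, adjusted p = 1.21e-05), or 1.73-fold. The changes differed by -0.08 (95% interval -0.48 to 0.32). Between the lines the differences were 0.13 and 0.05 in untreated cells and 0.13 and 0.19 with AMP-18, and the widest reach of their intervals was 0.47. These values lay close above the lowest detected value, where a log2 difference understates a change.

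Counted over the 7 tested probes, 4 were higher and 0 lower in untreated SCC-61 at 2 h, in a comparison that called 57.1% of all tested probes. At 24 h 4 were higher and 2, both of SNAI2, were lower (64.5% of all tested probes). With AMP-18 3 were higher at 2 h (59.7%), and 4 were higher and 2 lower at 24 h (65.4%). From 2 h to 24 h in untreated cells 1 rose and 4 fell in SCC-61 (51.9%), and 2 rose and 1 fell in HaCaT (57.9%). The changes with time differed between the lines at 5 probes (39.6%). Of the last 5, 1 was the dimmer VIM probe, with HaCaT at background. The shares of members lay on either side of those of all probes, their difference was not tested, and nothing is read from these counts about the members.

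**Figure D3:**
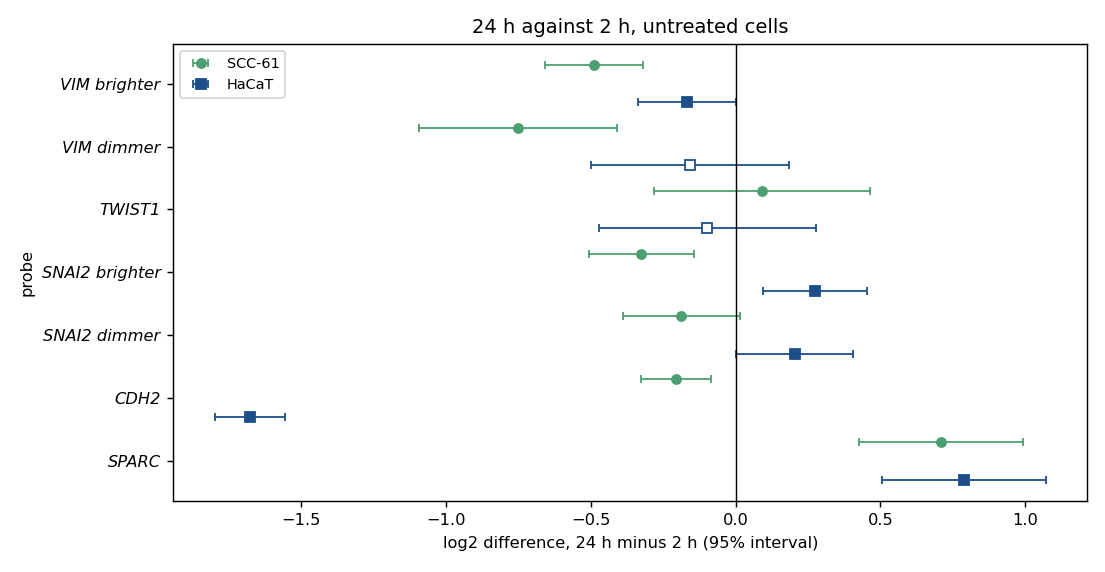
Log2 change from 2 h to 24 h in untreated cells for each tested member probe in SCC-61 and HaCaT, with 95% intervals from limma. Open symbols are probes at background at both times. SPARC rose in both lines (0.71 and 0.79), the brighter SNAI2 probe fell in SCC-61 and rose in HaCaT, and CDH2 in HaCaT lies far to the left at -1.68.

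With AMP-18, member probes passed the test in 1 of the 4 comparisons, HaCaT at 24 h. In SCC-61 at 2 h it called 8.64% of all tested probes but 0 of the 7 member probes (limma, 3 at an unadjusted p under 0.05, 0 by the methods' t-test). The brighter VIM probe read 9.75, 9.84 and 9.73 with AMP-18 against 9.58, 9.55 and 9.52 without. The arrays did not overlap, and the difference was 0.22 (95% interval 0.05 to 0.39) at an adjusted p of 0.0962. Fitted on these 6 arrays alone or with array weights this difference passed the threshold, and the dimmer probe gave 0.19 (adjusted p = 0.55). For SNAI2 the brighter probe read 8.59, 8.84 and 8.95 against 9.10, 8.93 and 8.98, a difference of -0.21 (adjusted p = 0.141), and the dimmer gave -0.24 (adjusted p = 0.141), with overlapping arrays for both. Without replicate 3 of either group the dimmer probe passed, with the difference running from -0.35 to -0.10 over the arrays left out. At 24 h in SCC-61, 0.283% of all tested probes and 0 members were called (limma, 1 at an unadjusted p under 0.05, 0 by the methods' t-test).

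In HaCaT at 2 h, 0.00463% of all tested probes and 0 members were called (limma, 1 at an unadjusted p under 0.05, 0 by the methods' t-test). That 1 was TWIST1, with 2.88, 4.08 and 3.15 against 3.99, 3.67 and 4.30, all 6 arrays at background, so that no fold is given. Without replicate 2 of the treated group it passed the threshold. At 24 h in HaCaT, 1.60% of all tested probes were called and 2 of the 7 member probes. CDH2 read 8.75, 8.97 and 8.93 with AMP-18 against 9.14, 9.22 and 9.09 without, a fall of 1.2-fold (log2 difference -0.27, SE 0.06, adjusted p = 0.0169). This call was lost without untreated replicate 1 or 2 or treated replicate 1 (adjusted p up to 0.11). The dimmer SNAI2 probe read 8.22, 8.21 and 8.13 against 7.81, 7.91 and 7.73, a rise of 0.37 (SE 0.10, adjusted p = 0.0486), and this call was lost without any 1 of the 6 arrays (adjusted p up to 0.124). Its brighter partner gave 0.19 (adjusted p = 0.309). Neither pair of groups overlapped for CDH2 or SNAI2, and 3 of the alternative fits took the count of called members to 0.

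No member passed the test for a difference of the AMP-18 effect between the lines or the times, but some did under other fits. Of all tested probes, 3.92% differed between the lines at 2 h, 0.148% at 24 h, 1.78% between the times in SCC-61 and 0.158% between the times in HaCaT, and the member count was 0 in all 4 (limma, 3, 1, 3 and 3 at an unadjusted p under 0.05). The smallest adjusted p was 0.0819, for the brighter SNAI2 probe between the times in SCC-61, with a difference of 0.42 (95% interval 0.17 to 0.68). That of CDH2 between the lines at 24 h was 0.26 (95% interval 0.09 to 0.43, adjusted p = 0.178). For the brighter VIM probe the AMP-18 effect in SCC-61 was above that in HaCaT by 0.35 at 2 h (95% interval 0.11 to 0.59, adjusted p = 0.0943), which passed with only the arrays compared or with array weights (adjusted p down to 0.0167). Array weights also took past the threshold the differences between the times for the brighter VIM and SNAI2 probes in SCC-61 (adjusted p = 0.0158 and 0.0245) and for CDH2 in HaCaT (adjusted p = 0.0391).

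**Figure D4:**
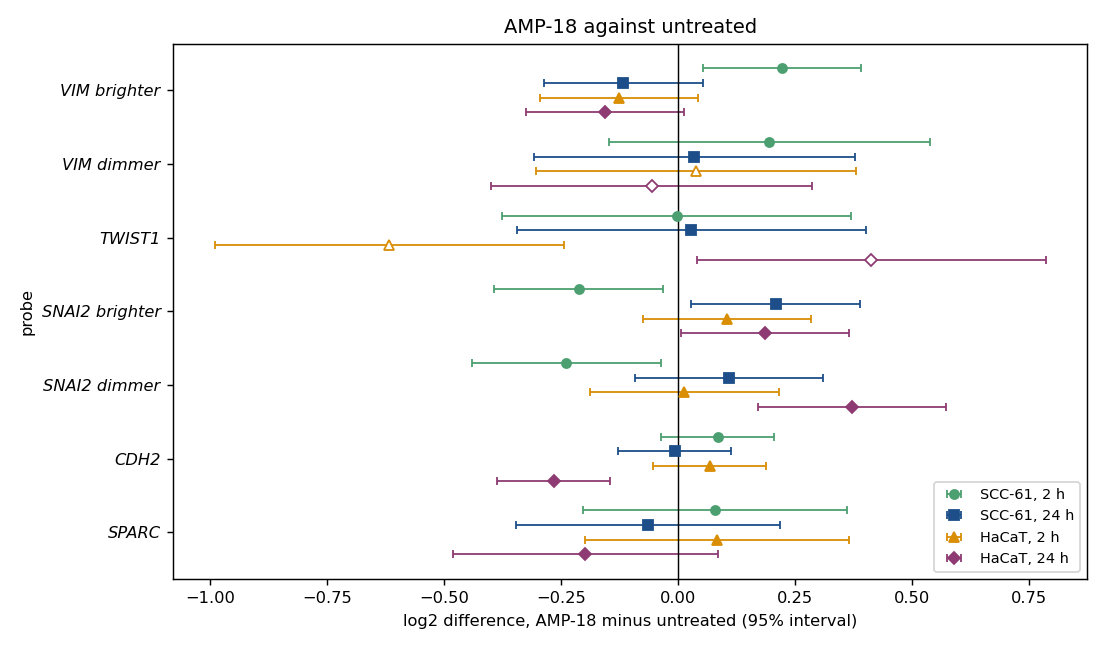
Log2 difference between AMP-18 treated and untreated cells for each tested member probe in each line and at each time, with 95% intervals from limma before adjustment. Open symbols are comparisons in which at least 1 group was at background. After adjustment only CDH2 (-0.27) and the dimmer SNAI2 probe (0.37) in HaCaT at 24 h were past the threshold.

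Genes that work with the members were described from lists of transition factors, mesenchymal and matrix genes, epithelial targets, TGF-beta signalling and partners, with all 12221 tested genes as the background. Untreated SCC-61 against HaCaT had 31.3% of all genes higher and 32.0% lower at 2 h (median log2 difference -0.01), and 33.9% and 36.6% at 24 h (median -0.04).

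Among the transition factors, 7 of 13 on the array were tested, and 2 were higher and 4 lower in SCC-61 at 2 h, 3 and 4 at 24 h. The lower ones include KLF8, which was at background in both lines at 2 h, so that no direction is read from it there. At 24 h KLF8 was at background in SCC-61 and at least 1.17-fold lower. ZEB2 and TWIST2, the paralogs of ZEB1 and TWIST1, were the pair higher at both times and were detected on 12 of 12 SCC-61 and 0 of 12 HaCaT arrays. SCC-61 was at least 1.29-fold and 1.34-fold higher for ZEB2 (adjusted p = 2.73e-06 and 3.96e-05) and at least 1.77-fold and 1.82-fold higher for TWIST2 (adjusted p = 2.3e-06 and 1.19e-05). These p-values test the fitted log2 differences, 1.45 and 1.18 for ZEB2 and 1.34 and 1.18 for TWIST2, and not the smaller bounds. TCF3, which encodes the E proteins that pair with TWIST1, was lower at both times, by a log2 difference of -1.32 and -1.07, and ETS1 by -0.55 and -0.63. SOX9, a factor of cartilage and of epithelial stem cells, had -1.48 at 2 h and 0.19 at 24 h (adjusted p = 0.0469). SNAI1, the paralog of SNAI2, was detected on 0 arrays and was not tested.

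Of 27 tested mesenchymal and matrix genes, 21 were higher and 5 lower in SCC-61 at 2 h, 19 and 3 at 24 h, with medians of 1.36 and 1.67. For genes at background in HaCaT the medians use fitted values, and their direction was in large part set by the filter. COL5A1, a fibrillar collagen chain, differed by 5.29 (SE 0.12) at 2 h and 4.85 at 24 h, and its partner chain COL5A2 was at background in all HaCaT arrays and at least 14.1-fold and 21.7-fold higher. ITGA5, the fibronectin receptor chain, differed by 3.27 and 4.10, and TPM2, a tropomyosin, by 3.66 and 3.13. COL3A1 was at least 3.88-fold and 7.57-fold higher. S100A4, a calcium-binding protein often used as a fibroblast marker, went the other way, with differences of -2.41 and -3.67 (adjusted p = 2.15e-21 and 4.5e-26). The 13 fibroblast markers, of which several are on this list, summed on the linear scale to 365 to 404 in untreated SCC-61 and 197 to 204 in untreated HaCaT at 2 h, and to 528 to 589 and 423 to 476 at 24 h. Of the 13, 10 were detected on 0 arrays in untreated HaCaT at 2 h and 9 at 24 h, against 5 and 6 in untreated SCC-61. The sums thus hold background signal, and no ratio of the lines is read from them. Of the 7 tested, 7 were higher in untreated SCC-61 at 2 h, where untreated HaCaT detected 0 of the 13 on all 3 arrays. TWIST2 and FAP were detected on 0 of 12 HaCaT arrays, and COL3A1 and COL6A3 on 1. These genes passed the filter through SCC-61 alone, which in large part set their direction. At 24 h 5 were higher and 2 lower, with log2 differences of -1.89 for DCN and -0.66 for LUM (limma, adjusted p = 4.98e-13 and 0.000779). The part of the fibroblast markers in the differences of this list was not tested.

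Of 42 epithelial targets, 11 were higher and 21 lower in SCC-61 at 2 h, 12 and 23 at 24 h, with medians of -0.17 and -0.56. The keratin genes KRT19, KRT14, KRT7 and KRT8 had the lowest values, with differences of -6.80, -5.88, -4.78 and -3.96 at 2 h and -8.08, -5.42, -5.27 and -3.38 at 24 h. OVOL2, a repressor of ZEB1 and of the transition, had -2.69 and -3.40. LSR, a protein of tricellular junctions, was higher by 2.17 and 3.17. CDH1, the E-cadherin gene that the 3 factors repress, was not among the lower genes: its difference was 0.62 at 2 h and 0.06 at 24 h.

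Of 12 genes of TGF-beta signalling, an inducer of the transition, 3 were higher and 7 lower at each time. BMP7, a ligand that opposes TGF-beta, was detected on 0 of 12 SCC-61 and 12 of 12 HaCaT arrays and was at least 23.9-fold and 26.5-fold lower in SCC-61. The receptor TGFBR2 had -2.23 and -1.92, and the inhibitor SMAD7 -0.86 and -1.04, while the co-receptor TGFBR3 was higher by 2.10 and 1.79 and the ligand TGFB2 by 1.50 and 2.12. Of 16 partners of the members, 7 were higher and 3 lower at each time. SPOCK1, a proteoglycan of the SPARC family, was higher by 3.00 and 2.51, PLEC, which encodes the plectin that anchors vimentin filaments, by 0.76 and 1.82, and KDM1A, a histone demethylase recruited by SNAI factors, by 1.01 and 1.47. SMOC2, another SPARC relative, was at background in HaCaT and at least 1.30-fold and 1.66-fold higher.

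**Figure D5:**
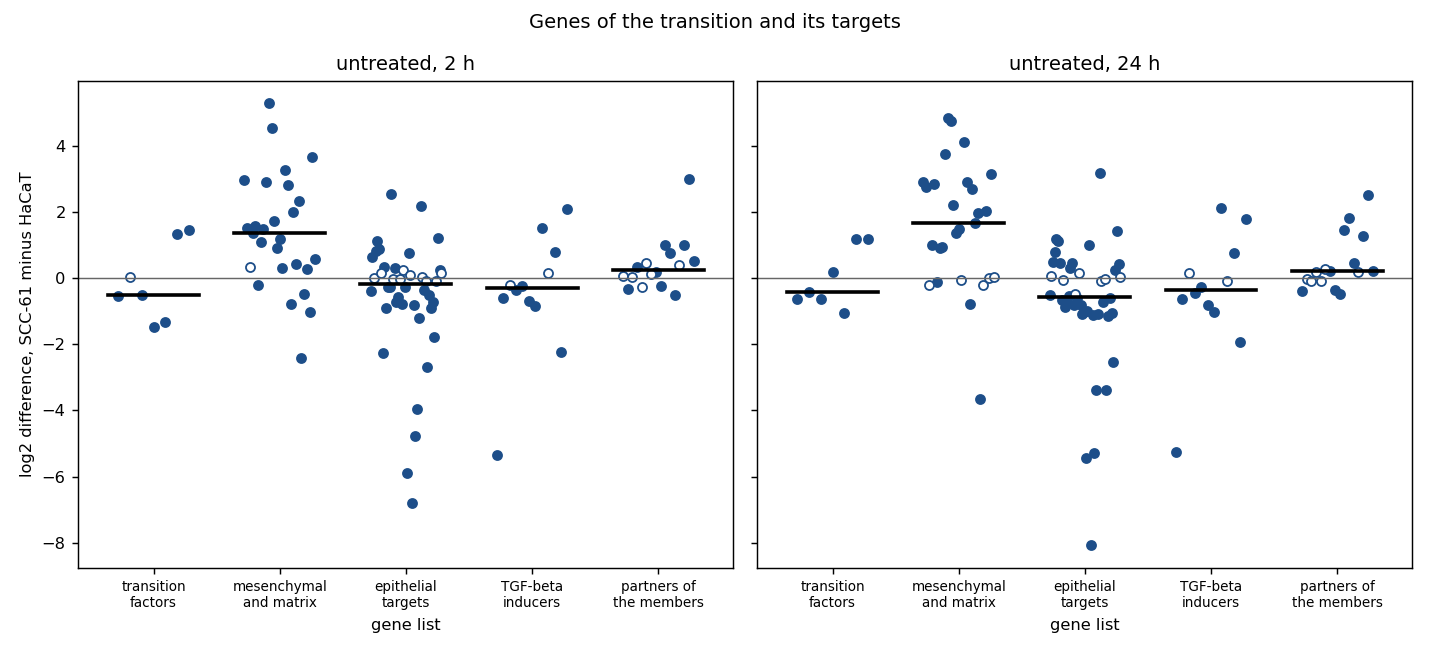
Log2 difference between untreated SCC-61 and HaCaT for each tested gene of 5 lists, at 2 h (left) and 24 h (right). Each point is 1 gene, filled where the adjusted p was under 0.05, black bars are list medians, and values of genes at background in 1 line are fitted values and no bounds. The mesenchymal and matrix genes have medians of 1.36 and 1.67 and the epithelial targets of -0.17 and -0.56, with the keratin genes KRT19, KRT14, KRT7 and KRT8 far below 0.

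With AMP-18 in SCC-61 at 2 h, where no member was called, 15 of the 42 epithelial targets rose and 1 fell, against 6.28% and 3.25% of all genes. CDH3 (P-cadherin) rose by 0.54, LSR by 0.63, and CDH1 by 0.19 (adjusted p = 0.00522), while OVOL2 fell by 0.20 (adjusted p = 0.0349). Of the 27 mesenchymal and matrix genes 4 rose and 0 fell, namely TNC (0.40), ITGA5 (0.36), THBS1 (0.22) and CD44 (0.18). None of the 7 transition factors was called. At 24 h in SCC-61 the counts were 0 higher and 1 lower of the epithelial targets and 0 of the mesenchymal and matrix genes, against 0.213% and 0.131% of all genes. In HaCaT at 24 h 1 of the 27 mesenchymal and matrix genes rose and 3 fell (3.7% and 11.1%), against 0.646% and 1.25% of all genes, and 0 of the transition factors and of the epithelial targets were called. TPM2 rose by 0.40 (adjusted p = 0.00217), while TAGLN, an actin-binding protein of smooth muscle, fell by 0.38, the receptor tyrosine kinase AXL by 0.26 and THBS1 by 0.25 (adjusted p = 0.0468, 0.0475 and 0.0486). These falls lay close to the threshold. Genes of the lists were not put to the alternative fits, some of which undid the member calls of this comparison. In HaCaT at 2 h 0 genes of any list were called.

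The genes with the pattern most like each member were sought over the 8 group means, by the root mean square of the log2 differences after each gene was centred on its own mean. For VIM the nearest of 12221 genes was KRT34, a hair keratin, at 0.14, followed by PCOLCE2, an enhancer of procollagen processing, and GNG11. For TWIST1 it was TPM2, at 0.18, a distance that rests in part on HaCaT means at or near background. It was for SNAI2 ZNF490, at 0.07, for CDH2 FKBP11, a prolyl isomerase of the secretory pathway, at 0.06, and for SPARC HAP1, at 0.07. These are likenesses over 8 groups that share a line, a time or a treatment, and they carry no test.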

How the data were processed

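Total RNA of 24 samples was hybridized to Illumina HumanHT-12 v4 arrays, which the authors read with GenomeStudio 2011.1 per the labels. The deposited table of expression holds log2 intensities, which the authors normalized between arrays by a method not given in the sources used here (array medians 4.2178 to 4.2202). A second deposited table holds a detection p-value per probe and array. Values were used as deposited. Symbols came from the platform annotation, where 30113 probes had 1 symbol, 8 several and 17202 none, and 0 were updated. Where a gene had several probes, the tested probe with the highest mean stood for it in lists, and both were reported for members. The number of arrays limits the precision.

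A linear model with a mean per group was fitted to all arrays in limma 3.58.1 (R 4.3.3), and contrasts were tested two-sided after eBayes with trend (16 residual degrees of freedom, 12.6 prior). Benjamini-Hochberg adjustment ran over the 21580 tested probes, with calls at an adjusted p under 0.05. The scripts were tested on simulated data. The members, the gene lists and the tests were chosen with earlier results of these data known. Up to 6 genes of each list were to be named by the size of the untreated difference between the lines, and the genes named beyond these (CDH1, SNAI1, CDH3, TNC, THBS1, CD44, TAGLN, AXL, DCN and LUM) were chosen after their values were seen. The alternatives were no filter, a detection p under 0.01 on all arrays, 16 added to the linear values, cyclic loess, median scaling, only the arrays compared, the replicate number as a block, no trend, array weights, the methods' t-test (named there for comparing groups, while genes on the arrays were ranked by Fisher's ratio), the other probe and leaving out each array. Fisher's ratio and feature elimination, which the methods name, were not used.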

Additional observations from a re-analysis of the deposited data

Results flagged for a closer look

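The change from 2 h to 24 h in untreated cells passed a test of the difference between the lines at 5 probes, of which 4, from 3 members, were above background in both lines. For CDH2 the difference (SCC-61 minus HaCaT) was 1.47, with adjusted p = 1.03e-14 from limma. For SNAI2 it was -0.60 at the brighter probe (adjusted p = 0.000248) and -0.39 at the dimmer (adjusted p = 0.0255, lost in 4 of 12 fits that left out 1 array and with no trend). For VIM it was -0.32 at the brighter probe (adjusted p = 0.029), a call lost in 6 of 12 fits that left out 1 array and with no filter or cyclic loess. At the dimmer VIM probe HaCaT was at background at both times, so the fitted -0.59 (adjusted p = 0.046, lost in 8 of 12 such fits) is no measured difference between the lines. Over all tested probes, 39.6% had such a difference.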

How the results depend on the processing

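The values of single member probes were set against the alternatives where their unadjusted p was under 0.05, and among these no direction was reversed. For the other values only the probes of a pair were compared, and these differed in sign for VIM with AMP-18 in SCC-61 at 24 h (-0.12 at the brighter and 0.03 at the dimmer probe) and in HaCaT at 2 h (-0.13 and 0.04, the latter at background), and for SNAI2 in the difference of the AMP-18 effect between the lines at 24 h (0.02 and -0.26). Of the values so set, 832 kept their side of the threshold, 59 fell short of it and 20 passed it. Counts of called member probes moved by over 1.5 times as follows. A stricter filter, which took 3 of the 7 member probes out of the test, left 2 in untreated cells at 2 h between the lines, 1 with AMP-18 at 2 h and 3 between the times in SCC-61. With only the arrays compared, or with array weights, 1 was called for AMP-18 in SCC-61 at 2 h and 1 for its difference between the lines. Array weights also gave 2 for the difference of the AMP-18 effect between the times in SCC-61 and 1 in HaCaT. For AMP-18 in HaCaT at 24 h the count of 2 became 1 with no filter, cyclic loess or array weights, and 0 with only the arrays compared, no trend or the methods' t-test. For the difference between the lines of the change with time the count of 5 became 3 with no filter, cyclic loess or no trend. Leaving out 1 array gave counts of 3 to 4, 5 to 6, 3 to 4 and 6 to 6 between the lines (untreated 2 h and 24 h, AMP-18 2 h and 24 h), 0 to 1 for AMP-18 in each line at 2 h and in HaCaT at 24 h, 0 to 0 in SCC-61 at 24 h, 0 to 1 for its differences between the lines at 2 h and between the times, 0 to 0 between the lines at 24 h, 5 to 6 and 3 to 3 between the times in SCC-61 and HaCaT, and 2 to 5 for the difference of these. The cause of these moves was not tested.

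The replicate numbers were checked as pairs and not used as such, since none of the 12 correlations of residuals between samples of 1 number exceeded 0.05 (lowest -0.16). With the replicate number as a block, the count for AMP-18 in HaCaT at 24 h was 1, with SNAI2 lost, and the other counts of called members stayed within 1.5 times of their value. Values close above the lowest detected signal, those of SPARC above all, limit what could be seen of smaller changes.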
